A study of Mus musculus with 9 samples.

Results

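Open chromatin was compared between multipotent progenitors (MPPs) that lack the retinoid X receptors alpha and beta and MPPs of wild-type mice. The libraries are MPP KO 1 and MPP KO 2 (genotype RXRa/RXRb-KO) and MPP WT 1 and MPP WT 2 (genotype Wild-type), 4 of the 9 libraries of the series. All were made from bone marrow of C57BL/6 mice, from lineage-negative cells of pooled animals that were enriched and then sorted by flow cytometry. What drove the deletion, which exons it removes and how old the mice were is not stated in the sources used here. The assay was ATAC-seq, in which the Tn5 transposase cuts accessible DNA, and each library has its own list of called peaks, the stretches where cuts pile up. The other 5 libraries are from long-term haematopoietic stem cells (LT-HSCs), 3 KO and 2 WT, and serve here only for comparison.

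Retinoid X receptors are nuclear receptors that bind DNA as partners of other receptors, among them the retinoic acid receptors, the liver X receptors that sense oxysterols, the PPARs that sense fatty acids, and the vitamin D and thyroid hormone receptors. Such pairs bind direct repeats of a short core motif related to AGGTCA, and the spacing of the repeat differs between partners. MPPs are the proliferative descendants of LT-HSCs and give rise to the myeloid, lymphoid, erythroid and megakaryocyte lineages.

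The 4 lists held 78189 (KO 1), 86353 (KO 2), 85471 (WT 1) and 80451 (WT 2) peaks, with a median width of 327 to 329 bp. Merging peaks that overlapped by at least 1 bp gave 100912 regions, of which 64330 were held by all 4 lists, 10509 by 3, 10662 by 2 and 15411 by 1. The measurement used for these 64330 regions is the rank of the region within a library, where rank 1 is the peak with the highest −log10 q-value of the authors' peak caller. Ranks were turned into normal scores, so that a difference of 1 equals 1 standard deviation of the scores, and a positive difference means a stronger rank in KO. The same difference covers fewer ranks near either end of a list than in its middle. The depth of the libraries is unknown, and in bulk cells a region open in fewer cells and a region less open in each cell cannot be told apart. All 10 MPP marker genes, among them Kit, Flt3 and Cd34, had a peak within 1 kb of a gene end in all 4 MPP lists. Of the LT-HSC markers 5 and 7 of 7 had one in KO and 6 and 6 in WT, of 10 macrophage markers 4 and 5 in KO and 5 and 6 in WT, and of 6 erythroid markers 2 and 3 in KO and 3 and 3 in WT. Of 11 T cell markers 5 had one in each list, of 5 B cell markers 4 in each, and of 12 stromal and endothelial markers 7 or 8. Marco, Vsig4, Cd163 and Timd4, macrophage genes, and Cd3g, Cd8b1 and Zap70, T cell genes, had none in any MPP list.

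The first start region to show is that of Rarb, which encodes retinoic acid receptor beta and is a textbook target of retinoic acid, because its rank fell in KO and its promoter carries a receptor repeat. The sequence is the RefSeq window (GRCm38.p6) of the Rarb start on chr14:16575427-16575726, minus strand, from 250 bases before the start to 50 after it. Capitals mark the receptor core motif AGGTCA and its variants AGTTCA as well as GGGTCA and also GGTTCA, searched on both strands.
Rarb: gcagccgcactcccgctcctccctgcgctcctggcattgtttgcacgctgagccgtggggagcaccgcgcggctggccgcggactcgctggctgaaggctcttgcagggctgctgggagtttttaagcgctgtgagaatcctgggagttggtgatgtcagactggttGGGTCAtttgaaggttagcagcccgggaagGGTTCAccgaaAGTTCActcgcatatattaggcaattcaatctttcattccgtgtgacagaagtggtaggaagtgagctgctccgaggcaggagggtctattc
The window holds 3 such cores, and the closest pair is a direct repeat spaced by 5 bases. Single cores of these 4 forms are common, with at least 1 in 39.8% of the windows whose region ranked lower, 21.2% of those ranked higher, 36.2% of tested windows and 41.2% of all promoter windows. A direct repeat of these 4 forms with a spacing of 1 to 5 was present in 1 of the 88 promoter windows whose region ranked lower in KO (1.14%), in 0 of the 52 whose region ranked higher, in 0.390% of the 9240 windows under tested start regions and in 0.428% of all 20084 promoter windows. This looser motif was chosen after the Rarb values were seen, so the Rarb match is no independent evidence. The strict direct repeat of AGGTCA was found in 0 lower, 0 higher and 3 of all tested windows. No match says only that these letters are absent from the window.

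The next sequences are the promoter windows of 4 platelet and megakaryocyte genes whose start regions ranked higher in KO. They are shown because 4 starts of a single lineage moved together. Gp1ba and Gp9 encode subunits of the platelet receptor for von Willebrand factor, Pf4 encodes platelet factor 4, and Itga2b encodes the integrin CD41. The windows are RefSeq GRCm38.p6 on chr11:70638872-70639171 (Gp1ba, plus strand), chr6:87777820-87778119 (Gp9, plus strand), chr5:90772185-90772484 (Pf4, plus strand) and chr11:102469834-102470133 (Itga2b, minus strand). Capitals mark GATAA on either strand, the core bound by GATA factors.
Gp1ba: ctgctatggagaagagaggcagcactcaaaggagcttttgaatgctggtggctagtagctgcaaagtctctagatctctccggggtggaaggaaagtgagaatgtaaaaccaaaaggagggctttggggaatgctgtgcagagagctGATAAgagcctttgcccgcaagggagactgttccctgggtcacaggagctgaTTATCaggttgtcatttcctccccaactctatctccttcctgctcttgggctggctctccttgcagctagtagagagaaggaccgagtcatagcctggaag
Gp9: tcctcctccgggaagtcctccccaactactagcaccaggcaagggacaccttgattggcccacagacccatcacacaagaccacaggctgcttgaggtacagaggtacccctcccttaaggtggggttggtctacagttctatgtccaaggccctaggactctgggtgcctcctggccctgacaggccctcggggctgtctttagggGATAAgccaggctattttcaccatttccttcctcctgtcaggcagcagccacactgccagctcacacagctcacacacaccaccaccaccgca
Pf4: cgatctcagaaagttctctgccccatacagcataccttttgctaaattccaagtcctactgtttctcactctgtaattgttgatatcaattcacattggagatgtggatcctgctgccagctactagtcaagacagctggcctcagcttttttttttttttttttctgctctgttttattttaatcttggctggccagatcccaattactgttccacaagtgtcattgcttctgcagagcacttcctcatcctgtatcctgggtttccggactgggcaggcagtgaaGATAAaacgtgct
Itga2b: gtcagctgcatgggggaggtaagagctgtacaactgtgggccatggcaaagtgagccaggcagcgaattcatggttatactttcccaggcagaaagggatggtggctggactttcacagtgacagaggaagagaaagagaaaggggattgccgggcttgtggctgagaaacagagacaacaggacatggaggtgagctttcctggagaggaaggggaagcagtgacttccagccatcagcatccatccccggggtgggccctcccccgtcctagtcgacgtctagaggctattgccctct
GATAA occurred 2 times in the Gp1ba window, 1 time in each of the Gp9 and Pf4 windows and 0 times in that of Itga2b. Over all promoter windows, GATAA was present in 28.8% of the 52 windows whose region ranked higher, 11.4% of the 88 whose region ranked lower, 14.1% of tested windows and 22.3% of all promoter windows. The stricter AGATAA was present in 15.4%, 5.68%, 5.38% and 9.57% of these sets, and of the 4 printed windows only in that of Pf4. GATAA was added for these 4 genes, which were named after their values were seen, so the marked matches are no independent evidence. Their regions also count among those that ranked higher. TGTGGT, the core of RUNX factors, was present in 23.1% of higher, 9.09% of lower and 12.4% of tested windows, and TGANTCA, the AP-1 motif, in 11.5%, 3.41% and 4.46%. The E-box CACGTG, which MYC binds, was present in 9.62% of higher, 15.9% of lower and 10.6% of tested windows. The single core AGGTCA was present in 5.77%, 10.2% and 11.1%, GGAAGT of ETS factors in 26.9%, 29.5% and 28.9%, and the GC box GGGCGG in 53.8%, 70.5% and 68.4%. All motifs were searched on both strands, overlaps between motifs were allowed, and a match is not a bound site.

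How far genotype orders the 4 lists was examined first. Among the 20000 strongest peaks of each list, 799 regions (3.4% of 23518 regions with such a peak) were held by both KO lists and neither WT list, and 786 (3.34%) by both WT and neither KO list. The mixed pairings, which put 1 KO with 1 WT list on each side, gave 184 to 230 regions. Every mixed pairing gave fewer regions than the genotype pairs. Lists cut to the same length give about equal counts in each direction, so the near equality of 799 and 786 says nothing of genotype. Regions in which both libraries of a genotype ranked above both of the other by at least 0.5 numbered 1435 for KO (2.23% of tested regions) and 1518 for WT (2.36%), against 338 to 398 in mixed pairings. The score correlation across these regions, which share libraries and are not independent, was 0.920 between the KO libraries, 0.925 between the WT libraries and 0.885 to 0.894 across genotypes. Cut to the 78189 strongest peaks of each list, the Jaccard index, the regions shared by a pair divided by the regions either held, was 0.798 for KO with KO, 0.810 for WT with WT and 0.772 to 0.786 across. The within-genotype excess was 0.0265 (exact permutation p = 0.333, one-sided, the smallest that 3 pairings allow).

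**Figure D1:**
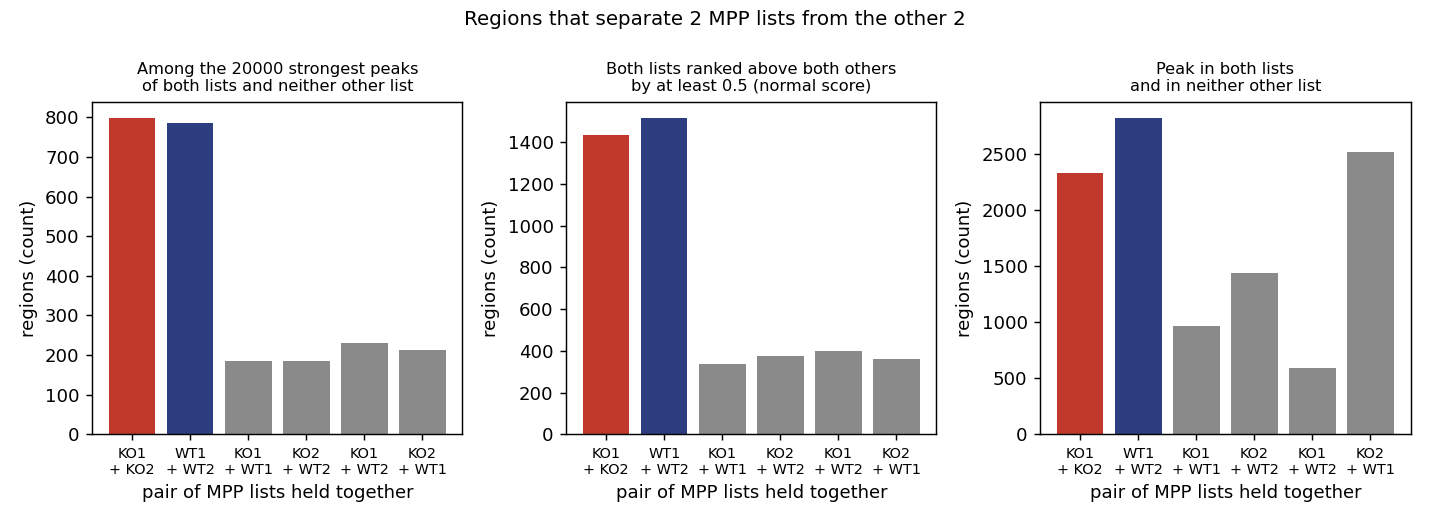
Bars count the regions that separate 2 MPP lists (named on the x axis) from the other 2, for the 20000 strongest peaks (left), for a rank gap of at least 0.5 (middle) and for presence in the full lists (right). KO with KO (red) and WT with WT (blue) separated 799 and 786 strong regions and mixed pairs (grey) 184 to 230, whereas by presence the mixed pair KO 2 with WT 1, the longest lists, reached 2518.

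Presence of a peak separated the genotypes less clearly. A peak in both KO and neither WT list was found in 2326 regions (2.3% of 100912), and in both WT and neither KO list in 2820 (2.79%). Mixed pairings gave 594 to 2518, the highest for KO 2 with WT 1, which are the longest lists. Cut to equal length, the lists gave 2348 and 2637, against 1064 to 1379 in mixed pairings. Among peaks with a −log10 q of at least 5 they were 1653 and 3390, and the mixed pair KO 2 with WT 1 had 2410, more than the KO pair. These regions were weak: their peaks had a median rank at 85.4% (KO) and 83.7% (WT) of the list, where 100% is the weakest peak. The genes with most regions held only by KO libraries were Tjp1, encoding a tight junction protein, Wwc2 and Mecom, with 5 each. Mecom encodes the stem cell transcription factor EVI1. Its 32 merged regions had peaks 27 and 26 times in the KO lists and 20 and 16 times in the WT lists, and those of Tjp1 (17 regions) 15 and 15 times in KO and 7 and 8 times in WT. Both genes had more peaks in each KO than in each WT list. They were picked for regions held only by KO, so this follows at least in part from the choice. Fmnl2, a formin of the actin cytoskeleton, Ust, a sulfotransferase, and Tns3, a focal adhesion protein, had 5 regions each held only by WT libraries. Fmnl2 had a further 2 and Tns3 a further 1 held only by KO.

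Of the 64330 regions held by all 4 lists, 2422 passed the test (3.76%). Of these, 1216 ranked higher in KO (1.89% of all tested regions) and 1206 lower (1.87%), by limma with a variance trend and Benjamini-Hochberg adjusted p under 0.05. Median ranks of the higher regions were 16512 (KO 1) and 16639 (KO 2) against 29470 (WT 1) and 29416 (WT 2). Those of the lower regions were 33272 and 32613 against 18876 and 18714. The median differences were 0.537 and −0.576, against 0.00220 over all regions. Scores of ranks are centred alike in every library, so a balance of higher and lower regions is largely fixed by the scaling. The groups did not overlap in 1214 of the higher and 1198 of the lower regions, against 47.1% of all tested regions (23.9% with KO higher and 23.2% with KO lower). As these regions were picked by a test on the same scores, that contrast follows largely from the choice. At unadjusted p, 11559 regions (17.97%) passed 0.05.

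The number of calls changed with the variance model and with the ranking. With no variance trend limma gave 0 calls in either direction. Ranks by fold enrichment gave 27 higher and 62 lower, and ranks taken within start regions and within the rest 0 and 1. By fold the direction was the same for 1204 of the 1216 and 1204 of the 1206, and for 58031 of all 64330 tested regions. Fold and q-value come from the same peaks, so the same direction by fold was common among regions in general. The higher and lower calls numbered 598 and 1339 without KO 1, 716 and 1373 without KO 2, 1113 and 636 without WT 1, and 827 and 350 without WT 2. These fits rest almost wholly on the variance trend (a median of 64330 total degrees of freedom, 1225 without WT 1, against 40.3 with all 4 libraries), so a call that remains in them is no sign of stability.

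Regions near gene starts differed least often. Within 1 kb of a start (either gene end where RefSeq windows give no start), 100 of 14318 tested regions ranked higher (0.698%) and 143 lower (0.999%). Inside genes the shares were 2.28% and 2.00%, outside genes but within 100 kb 2.04% and 2.25%, and over 100 kb from any gene 3.10% and 2.41%. By strength, calls made up 0.535% (higher) and 0.734% (lower) of the weakest quartile of regions and 3.03% and 3.07% of the third. The share of the 20000 strongest peaks near starts or ends was 43.6% (KO 1), 43.2% (KO 2), 43.1% (WT 1) and 44.0% (WT 2). The KO minus WT difference was −0.175 percentage points, within the spread of the libraries (exact permutation p = 1, two-sided, smallest possible 0.333). Of the higher regions 15.9% had another higher region within 50 kb and 10.3% a lower one, and of the lower regions 14.3% had another lower and 10.7% a higher one. The share of all tested regions with such a neighbour was not computed, so these values do not show whether calls cluster. Calls made up 2.96% to 4.35% of tested regions on each of the chromosomes 1 to 19.

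**Figure D2:**
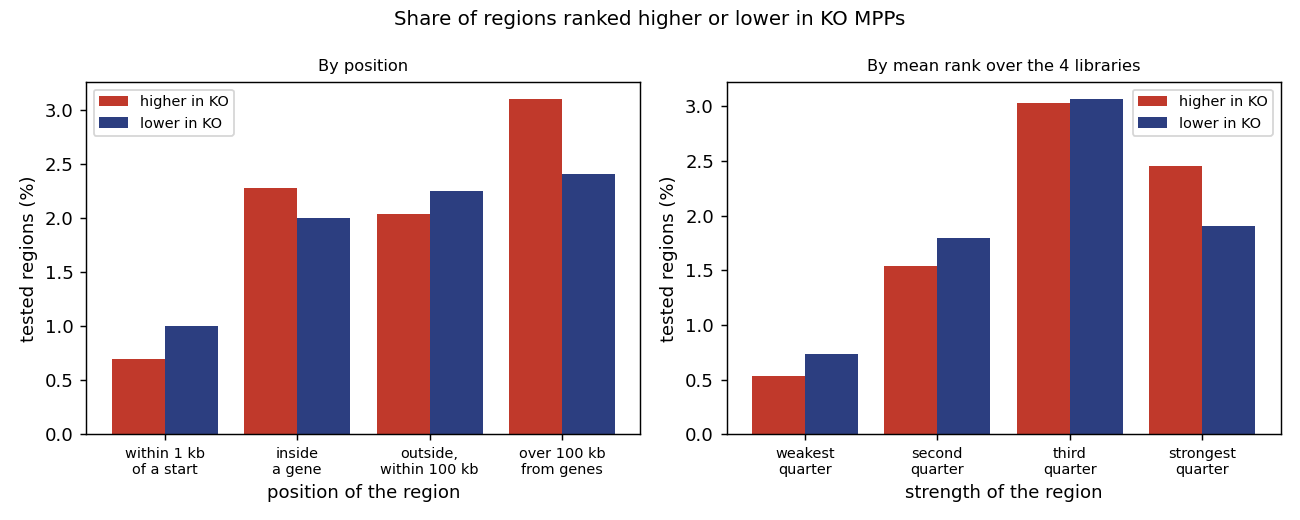
Bars give the percent of tested regions ranked higher (red) or lower (blue) in KO MPPs, by position (left) and by quartile of the mean rank over the 4 libraries (right). Regions within 1 kb of a start have the smallest shares of the 4 positions (0.698% and 0.999%), and the weakest quartile the smallest of the 4 strengths.

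At the receptor genes themselves no region was called. Rxra had 12 tested regions, Rxrb 2 and Rxrg 5, and none passed the test. The Rxrb start region ranked 5691 and 7061 in KO and 6633 and 5636 in WT, and the strongest Rxra region, inside the gene, 7076 and 5113 in KO and 6191 and 5745 in WT. In both regions the genotypes overlapped. The Rxra start region was weak, with ranks 62348 and 62572 in KO and 63957 and 42340 in WT. Where the deletions lie is not known here, so these peaks do not check the genotype. Within 10 Mb of Rxra, 12 of 992 regions ranked higher and 16 lower, and within 10 Mb of Rxrb 17 and 18 of 1109. Calls thus made up 2.82% and 3.16% of these regions, against 3.76% of all tested regions.

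The list of RXR and its partner receptors, 18 genes with 126 tested regions, held 2 higher and 3 lower regions, shares near those of all regions. The largest difference was at the Rarb start (mm10 chromosome 14, 16575261 to 16575830), which covers the promoter printed above. It ranked 57482 and 57806 in KO and 24856 and 33538 in WT. Both KO libraries placed it among the weakest regions and both WT libraries near the middle, a difference of −1.38 ± 0.300 (SE; limma adjusted p = 0.00621). Without WT 1 the difference was −1.21 (limma adjusted p = 0.154). The other 12 Rarb regions did not pass, and the median difference over all 13 tested Rarb regions was 0.190, in the other direction. Pparg, the fatty acid sensor of fat cells, had a lower region 14.7 kb outside the gene (−0.974 ± 0.241, limma adjusted p = 0.0157), and Ppard a higher one inside the gene (0.676 ± 0.197, limma adjusted p = 0.0420). Nr4a1, encoding an orphan receptor induced by many stimuli, had 1 higher and 1 lower region. Of the 5 calls of the list, 3 ended without KO 1 (limma adjusted p 0.0998 to 0.182), 1 without KO 2 (Ppard, 0.136), 3 without WT 1 and 3 without WT 2 (0.059 to 0.263).

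Targets of RXR partner receptors were the list with the largest share of lower regions. Of 117 regions of its 23 genes with tested regions, 13 ranked lower (11.1%, against 1.87% of all regions) and 2 higher (1.71%, against 1.89%). The list's median difference was −0.0395, and most of its regions did not pass. KO ranked below WT without overlap in 36.8% of its regions, against 23.2% of all, and above in 22.2%, against 23.9%. Mature macrophage markers had lower ranks in KO more often as well: KO ranked below WT without overlap in 45.5% of their 22 regions and above in 13.6%, and 2 regions were called lower (9.09%) and 0 higher. Their merged regions had peaks 24 and 27 times in KO and 36 and 33 times in WT, with peaks near 4 and 5 of 10 genes in KO and 5 and 6 in WT and none near Marco, Vsig4, Cd163 or Timd4 in any list. The part of such cells in the lower ranks of the targets was not tested. The 13 lower regions belong to 9 genes: Abca1, Abcg1, Klf9 and Plin2 with 2 each, and Mylip, Fabp4, Scd1, Cd36 and Cd38 with 1 each. The lower count was 7 without WT 2 and 0 with no variance trend. Of the 15 calls, 2 ended without KO 1 (Cd36 and Scd1), 2 without KO 2 (Cd38 and Plin2), 4 without WT 1 and 7 without WT 2 (limma adjusted p 0.057 to 0.251).

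The cholesterol genes of this list, known targets of liver X receptors, gave the largest differences. Abca1 encodes the exporter that loads cholesterol onto apolipoprotein A-I. An Abca1 region inside the gene (mm10 chromosome 4, 53115900 to 53116261) ranked 50837 and 58734 in KO and 20170 and 18129 in WT, a difference of −1.62 ± 0.236 (limma adjusted p = 9.35e-05). A region 58.2 kb outside the gene (53218012 to 53218460) ranked 61949 and 56469 in KO and 27297 and 21541 in WT (−1.78 ± 0.309, limma adjusted p = 0.000713). In both regions the genotypes were far apart, with both KO libraries in the weaker part of the list. A further region inside Abca1 (53106795 to 53107211) moved the other way, with ranks 19394 and 20465 in KO and 36914 and 53854 in WT (1.08 ± 0.202, limma adjusted p = 0.00159). The other 15 of the 18 Abca1 regions did not pass.

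Abcg1 encodes the exporter that passes cholesterol to HDL. Its region within 1 kb of a gene end (mm10 chromosome 17, 31058616 to 31059100) ranked 61028 and 50100 in KO and 30571 and 27300 in WT, a difference of −1.33 ± 0.305 (limma adjusted p = 0.00956), which without WT 2 was −1.26 (limma adjusted p = 0.117). A stronger region 19.1 kb outside Abcg1 ranked 19643 and 19544 in KO and 11844 and 10849 in WT (−0.418 ± 0.0968, limma adjusted p = 0.00995). The median difference over all 9 tested Abcg1 regions was 0.0701. Mylip encodes IDOL, the ubiquitin ligase that removes the LDL receptor. Its lower region lay inside the gene, 2.00 kb from the start (mm10 chromosome 13, 45391594 to 45391891), and ranked 42107 and 43517 in KO and 18811 and 16007 in WT (−1.04 ± 0.159, limma adjusted p = 0.000167). Replicates of a genotype lay close together and the genotypes far apart. Lpcat3, a phospholipid remodelling enzyme, had the other higher region of the list (0.499 ± 0.105, limma adjusted p = 0.00478).

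Klf9, a Kruppel-like factor gene known to respond to thyroid hormone, had the smallest adjusted p of the list. The region 5.99 kb upstream of its start (mm10 chromosome 19, 23134783 to 23135697) ranked 13744 and 14102 in KO and 5131 and 4852 in WT, a difference of −0.637 ± 0.0830 (limma adjusted p = 1.33e-05). Its start region (23140596 to 23141353) ranked 12601 and 13443 in KO and 5311 and 5905 in WT (−0.526 ± 0.0835, limma adjusted p = 0.000290). Both regions stayed among the strong ones in KO but lost places to other regions. Ranked by fold enrichment, the upstream difference was −0.204 and that of the start −0.169.

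Genes of fatty acid handling, known targets of PPARs or liver X receptors, had smaller differences. Plin2, the coat protein of lipid droplets, had a region 20.2 kb outside the gene with ranks 21305 and 17036 in KO and 7548 and 10424 in WT (−0.555 ± 0.0974, limma adjusted p = 0.000788). A second Plin2 region, inside the gene, differed by −0.444 ± 0.122 (limma adjusted p = 0.0306). Fabp4, a fatty acid carrier, differed by −0.462 ± 0.101 in a region 4.86 kb outside the gene, Cd36, a fatty acid and scavenger receptor, by −0.464 ± 0.122 inside the gene, and Scd1, a desaturase, by −0.359 ± 0.0846. Cd38, an NAD-consuming enzyme that retinoic acid induces in myeloid cells, differed by −0.443 ± 0.117 inside the gene. Limma adjusted p for these 4 lay between 0.00632 (Fabp4) and 0.0243 (Cd38).

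**Figure D3:**
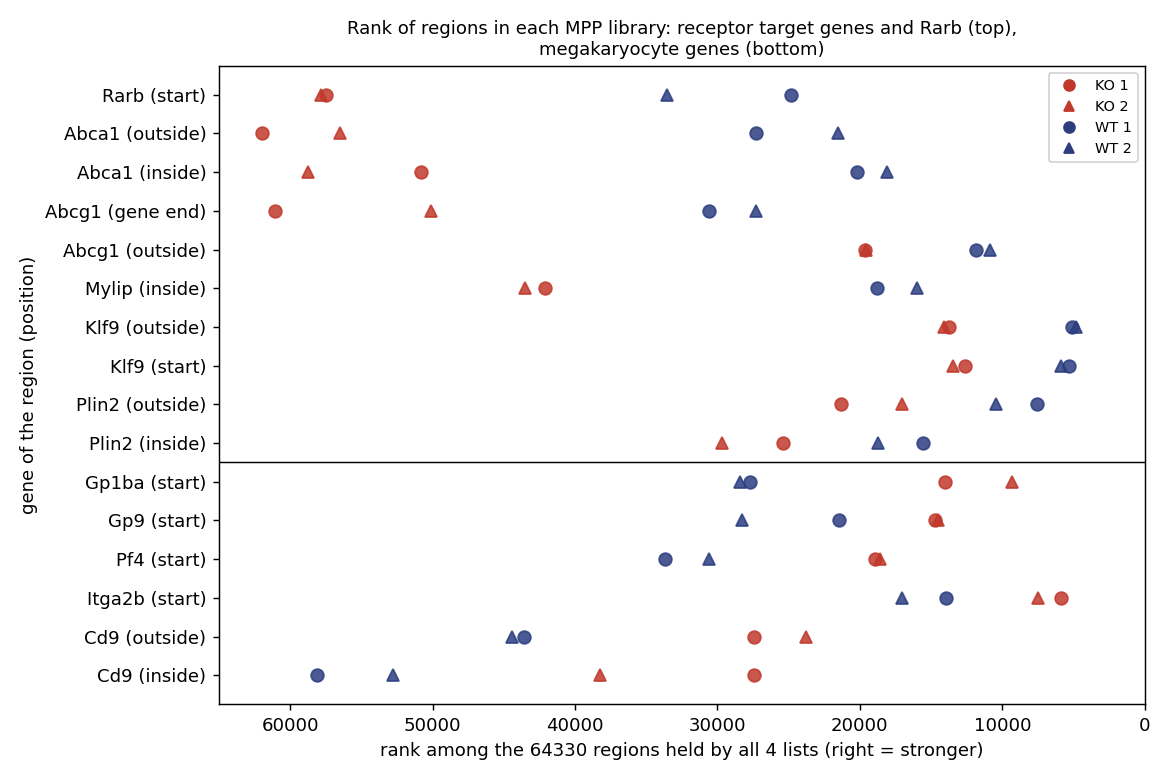
Points give the rank of 16 regions in each MPP library (x axis, stronger to the right; red KO, blue WT, circles replicate 1, triangles replicate 2). In the 10 regions of receptor target genes and Rarb (top) both WT libraries lie right of both KO libraries, and in the 6 regions of megakaryocyte genes (bottom) both KO libraries lie right of both WT libraries; these regions were drawn because they passed the test.

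Some regions of erythroid and megakaryocyte genes ranked higher in KO. Of 101 regions, 9, at 8 of 21 genes, ranked higher in KO (8.91%, against 1.89% of all regions) and 0 lower (against 1.87%). At unadjusted p, 22 regions were higher and 4 lower. KO ranked above WT without overlap in 37.6% of the list's regions, against 23.9% of all, and below in 15.8%, against 23.2%. The median difference was 0.0859. The higher count was 5 without KO 1, 4 without KO 2 and 0 with no variance trend, and without KO 2 the lower count was 2. These lists were drawn up with earlier results of these data known.

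The 4 megakaryocyte starts printed above were among the 9. Gp1ba (mm10 chromosome 11, 70638690 to 70639294) ranked 14036 and 9288 in KO and 27735 and 28412 in WT, a difference of 0.759 ± 0.112 (limma adjusted p = 0.000112). Itga2b (mm10 chromosome 11, 102469842 to 102470435) ranked 5852 and 7472 in KO and 13987 and 17033 in WT (0.560 ± 0.0890, limma adjusted p = 0.000290). In both the KO libraries lay well above the WT libraries. Pf4 (mm10 chromosome 5, 90771961 to 90772740) ranked 18938 and 18552 in KO and 33649 and 30582 in WT (0.547 ± 0.134, limma adjusted p = 0.0145). Gp9 (mm10 chromosome 6, 87777856 to 87778235) ranked 14730 and 14538 in KO and 21447 and 28243 in WT (0.455 ± 0.114, limma adjusted p = 0.0167). Leaving out 1 library ended the call for these last genes. Pf4 had limma adjusted p = 0.0568, 0.0662 and 0.0590 without KO 1, KO 2 and WT 1. Gp9 had limma adjusted p = 0.0538 and 0.217 without KO 2 and WT 2.

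The remaining 5 higher regions lay away from starts. Cd9, a tetraspanin of megakaryocytes and other blood cells, had 2, with differences of 1.08 ± 0.303 inside the gene and 0.739 ± 0.194 16.6 kb outside it. Ank1, the red cell ankyrin, differed by 0.871 ± 0.233 inside the gene, Slc4a1, the red cell anion exchanger, by 0.490 ± 0.129, and Gfi1b, a transcription factor of both lineages, by 0.473 ± 0.110 in a region 10.01 kb outside the gene. Limma adjusted p for these 5 regions lay between 0.0105 (Gfi1b) and 0.0339 (Cd9). Without 1 library these calls ended for Gfi1b (KO 1), Ank1 (KO 2 and WT 2), Slc4a1 (KO 2, WT 1 and WT 2) and at least 1 Cd9 region (each library), with limma adjusted p up to 0.313. Markers of erythroid cells had peaks near 2 and 3 of 6 genes in KO and 3 and 3 in WT. Whether such cells had a part in these higher ranks was not tested.

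**Figure D4:**
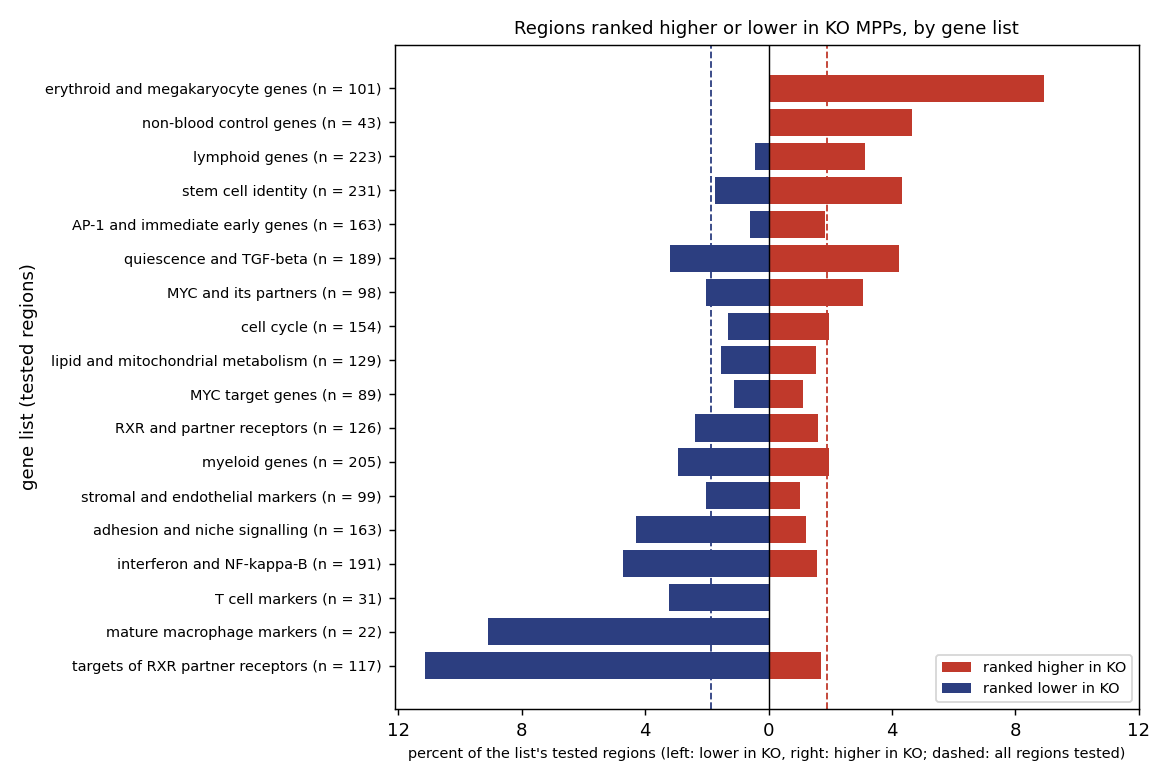
Bars give the percent of each list's tested regions that ranked higher (red, right) or lower (blue, left) in KO MPPs, with the number of regions beside the name, and dashed lines give the shares over all regions (1.89% and 1.87%). The largest shares are 8.91% higher for erythroid and megakaryocyte genes and 11.1% lower for targets of RXR partner receptors; short lists such as the 22 regions of macrophage markers move by several percent with 1 region.

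Stem cell identity genes had 10 higher (4.33%, against 1.89% of all regions) and 4 lower regions (1.73%, against 1.87%) of 231. Prdm16 and Eya2 had 2 higher regions each, and among the genes with 1 were Angpt1, Fgd5, Meis1, Runx1 and Fli1. Prdm16, Meis1 and Runx1 encode transcription factors of blood stem cells, and Angpt1 encodes angiopoietin, which signals to them through Tie2. The Angpt1 region, inside the gene, ranked 20344 and 18463 in KO and 39113 and 39587 in WT (0.804 ± 0.154, limma adjusted p = 0.00207). Kit, Mllt3, Erg and Fli1 had 1 lower region each, that of Erg by −1.15 ± 0.330 (limma adjusted p = 0.0396). KO ranked above WT without overlap in 36.4% of the list's regions, against 23.9% of all, and below in 16.0%, against 23.2%. Without KO 1, KO 2, WT 1 and WT 2 in turn, 4, 3, 5 and 6 of the 14 calls ended (limma adjusted p 0.0563 to 0.357), among them Erg without KO 1 and without WT 2.

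Lymphoid genes had 7 higher (3.14%, against 1.89% of all regions) and 1 lower region (0.448%, against 1.87%) of 223. The higher ones were at Lef1 and Tcf7, transcription factors of T cell development, Runx3, Ets1, Bcl11a, Flt3 and Dntt. Lef1 ranked 20198 and 20999 in KO and 27381 and 49864 in WT (0.751 ± 0.190, limma adjusted p = 0.0182), and Runx3 differed by 0.525 ± 0.123 (limma adjusted p = 0.0108). The lower region was also at Dntt, the terminal transferase of lymphoid progenitors, 2.54 kb before its start. It ranked 50614 and 60444 in KO and 27491 and 25007 in WT (−1.41 ± 0.286, limma adjusted p = 0.00340), while the region 2.00 kb beyond the start rose by 0.415 ± 0.0975. These neighbouring Dntt regions passed the test in opposite directions, but the lower call ended without WT 2 (limma adjusted p = 0.0650) and the higher one without WT 1 (0.229). Without KO 1, KO 2, WT 1 and WT 2 in turn, 5, 2, 4 and 4 of the 8 calls ended (limma adjusted p 0.0518 to 0.444), among them Runx3 without KO 1 and Lef1 and Runx3 without WT 2.

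Quiescence and TGF-beta genes had 8 higher (4.23%, against 1.89% of all regions) and 6 lower regions (3.17%, against 1.87%) of 189. The start region of Tgfbr1, a TGF-beta receptor gene, was among the strongest of all, with ranks 8 and 101 in KO and 934 and 378 in WT (0.966 ± 0.152, limma adjusted p = 0.000265). Tgfbr2, the partner receptor gene, had 2 higher regions inside the gene (0.544 ± 0.109 and 0.443 ± 0.0795) and a lower one 2.99 kb before its start (−0.429 ± 0.0929). Smad3, Smad7, Ski, Foxo3 and Klf6 had 1 higher region each. Lower regions were at Btg1, an antiproliferative gene (−1.59 ± 0.398, limma adjusted p = 0.0167), Tgfbr1, Tgfb1, Foxo3, Klf6 and Tgfbr2. Of the 9 genes with a call, 4 had calls in both directions. KO ranked above WT without overlap in 27.5% of the list's regions, against 23.9% of all, and below in 21.7%, against 23.2%. The list's median difference was 0.00508. Without KO 1, KO 2, WT 1 and WT 2 in turn, 3, 4, 6 and 6 of the 14 calls ended (limma adjusted p 0.0526 to 0.468), among them Btg1 without either WT library.

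Interferon and NF-kappa-B genes had 9 lower (4.71%, against 1.87% of all regions) and 3 higher regions (1.57%, against 1.89%) of 191. Lower regions included those at Socs3 and Nfkb1, with 2 each, and at Irf1, Irf2, Rel and Tlr4. Irf1, encoding an interferon-induced transcription factor, had a region inside the gene with ranks 30479 and 41301 in KO and 22314 and 20930 in WT, a difference of −0.572 ± 0.159 (limma adjusted p = 0.0322). Higher regions were at Irf2 (0.447 ± 0.0969), Stat3 (0.413 ± 0.116) and the start of Socs3 (0.349 ± 0.0874). KO ranked below WT without overlap in 34.6% of the list's regions, against 23.2% of all, and above in 22.5%, against 23.9%. Without KO 1, KO 2, WT 1 and WT 2 in turn, 6, 5, 9 and 8 of the 12 calls ended (limma adjusted p 0.0533 to 0.616), and that at Irf1 ended without KO 2, WT 1 or WT 2.

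Adhesion and niche signalling genes had 7 lower (4.29%, against 1.87% of all regions) and 2 higher regions (1.23%, against 1.89%) of 163. Cxcr4, the receptor that holds progenitors in the marrow, had 3 lower regions, at a gene end, 16.0 kb and 50.1 kb outside it, and 1 higher region 81.2 kb outside it. The region at 16.0 kb ranked 12159 and 14551 in KO and 6685 and 7345 in WT (−0.416 ± 0.0863, limma adjusted p = 0.00417), and the higher one 20445 and 16285 against 37020 and 31304 (0.648 ± 0.141, limma adjusted p = 0.00605). Itgb2, the beta2 integrin, had 2 lower regions, and Selplg, the selectin ligand, and S1pr1, the receptor that guides exit from the marrow, had 1 each. That of S1pr1 differed by −0.849 ± 0.242 (limma adjusted p = 0.0376). Itga4, an integrin that binds VCAM1, had a higher region inside the gene (0.698 ± 0.131, limma adjusted p = 0.00168). KO ranked below WT without overlap in 27.0% of the list's regions, against 23.2% of all, and above in 25.8%, against 23.9%. Without KO 1, KO 2, WT 1 and WT 2 in turn, 2, 6, 6 and 6 of the 9 calls ended (limma adjusted p 0.059 to 0.547), and that at S1pr1 ended without either WT library.

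Myeloid genes had 4 higher (1.95%, against 1.89% of all regions) and 6 lower regions (2.93%, against 1.87%) of 205. Cebpb, a transcription factor of granulocyte production, had 2 higher and 1 lower region, the lower one with ranks 60657 and 53676 in KO and 35933 and 26254 in WT (−1.32 ± 0.319, limma adjusted p = 0.0134). Cebpe and Ly86 had the other higher regions, and Irf8, Csf3r, Fcgr1, Cd33 and Sirpa the other lower ones. The Irf8 region, 16.4 kb before the start of this monocyte factor gene, differed by −0.792 ± 0.212 (limma adjusted p = 0.0259). KO ranked below WT without overlap in 35.1% of the list's regions, against 23.2% of all, and above in 19.5%, against 23.9%. Of the 10 calls, 5, 3, 7 and 7 ended without KO 1, KO 2, WT 1 and WT 2 in turn (limma adjusted p 0.0508 to 0.296), that at Irf8 without either WT library and the lower one at Cebpb without WT 2 (−1.13, limma adjusted p = 0.239).

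At MYC, its partners and its targets few regions were called. Myc, the growth-promoting transcription factor named in the title of the series, had 12 tested regions of which 0 passed. Its start region ranked 11475 and 10841 in KO and 11798 and 11322 in WT, a difference of 0.0242 (limma adjusted p = 0.926). The largest of the 12 was 1.01, with ranks 37724 and 50653 against 63171 and 53283 (limma adjusted p = 0.186). MYC and its partners had 3 higher (3.06%, against 1.89% of all regions) and 2 lower regions (2.04%, against 1.87%) of 98. KO ranked above WT without overlap in 20.4% of the list's regions, against 23.9% of all, and below in 17.3%, against 23.2%. Max, its dimer partner, was higher in 2 and Mycl lower in 1. Fbxw7, whose product degrades MYC, was higher inside the gene (0.492 ± 0.114) and lower at its start (−0.433 ± 0.104). The stronger Max difference was 1.94 ± 0.460 (limma adjusted p = 0.0118), 63.3 kb outside the gene. MYC target genes had 1 higher region of 89, at Bop1 (1.75 ± 0.469), and 1 lower, at Fbl (−0.520 ± 0.120), both genes of ribosome production. These are 1.12% each, against 1.89% and 1.87% of all regions. Of the 5 calls at MYC partners, 3, 2, 4 and 2 ended without KO 1, KO 2, WT 1 and WT 2 (limma adjusted p 0.0651 to 0.216). The call at Bop1 ended without KO 1, KO 2 or WT 2 and Fbl without WT 1 (limma adjusted p 0.076 to 0.178).

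The other lists had 5 calls or fewer each, and their shares stand beside 1.89% higher and 1.87% lower over all regions. Cell cycle genes had 3 higher (1.95%, E2f3, Ccnd1 and Ccnd2) and 2 lower regions (1.30%, Ccnd2 and Ccnd3) of 154. AP-1 and immediate early genes had 3 higher (1.84%, Jun, Bach2 and Dusp2) and 1 lower (0.61%, Fos) of 163. Lipid and mitochondrial metabolism genes had 2 higher (1.55%, Slc2a1 and Srebf2) and 2 lower (1.55%, among them Ppargc1a) of 129. Srebf2, a transcriptional regulator of sterol synthesis, differed by 0.469 ± 0.0904 (limma adjusted p = 0.00218). E2f3, a cell cycle transcription factor, differed by 0.905 ± 0.203 (limma adjusted p = 0.00795) and Jun by 0.925 ± 0.259 (limma adjusted p = 0.0339). Stromal and endothelial markers had 1 higher (1.01%, Pecam1) and 2 lower regions (2.02%, Pecam1 and Cxcl12) of 99. T cell markers had 1 lower region of 31 (3.23%, Cd28) and macrophage markers 2 lower of 22 (9.09%, Marco and Cd163). Genes not used in blood had 2 higher of 43 (4.65%, Apob and Cdh1), a higher share than in the stem cell identity, quiescence and lymphoid lists. The Marco and Cd163 regions lay 27.7 and 28.7 kb outside genes that had no peak near a gene end. KO ranked above WT without overlap in 30.3% of the stromal and 30.2% of the non-blood regions, against 23.9% of all. It ranked below in 20.2% and 23.3%, against 23.2%. Without KO 1, KO 2, WT 1 and WT 2 in turn, 3, 4, 3 and 3 of the 5 cell cycle calls, 2, 2, 2 and 3 of the 4 AP-1 calls and 2, 3, 2 and 3 of the 4 metabolism calls ended (limma adjusted p 0.0534 to 0.553). Jun lost its call without KO 1 and without WT 2.

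Of 15418 genes with tested regions, 980 had a higher region, 1037 a lower one and 128 both. Genes with more tested regions had more chances of a call. Over all tested regions 1.89% ranked higher and 1.87% lower. Gse1, a chromatin protein gene, had most higher regions (5 of 56), with differences from 0.367 ± 0.0891 to 0.861 ± 0.213. Clec16a, a regulator of mitophagy, had 4 of 17, from 0.456 ± 0.126 to 0.725 ± 0.218. Both had 0 lower regions. Elmo1 (35 tested regions) and Rftn1 (28) had 3 higher and 1 lower region each, and Nfia (37) and Rgs1 (9) 3 higher regions each. Lower regions were most frequent at Jak1 (17 tested regions), a kinase of cytokine signalling, Dner (7), Rnf144b (13), Nup160 (10), Gm826 (7) and Cxcr4 (15), with 3 each. The Jak1 region 18.8 kb outside the gene ranked 60189 and 58094 in KO and 25202 and 25766 in WT (−1.67 ± 0.299, limma adjusted p = 0.00101), while another Jak1 region 33.4 kb outside it was higher (0.568 ± 0.141). In Dner, a Notch ligand gene, all 3 were inside the gene, the first with ranks 23759 and 31237 in KO and 13309 and 12514 in WT (−0.654 ± 0.115, limma adjusted p = 0.000796). The call at the higher Jak1 region ended without WT 1 (limma adjusted p = 0.306).

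The largest single differences were in regions that were weak in 1 genotype. On the higher side they included a region over 100 kb from any gene (mm10 chromosome 4, 84017027 to 84017743; 2.59 ± 0.574), Prune2 (2.42 ± 0.444) and Gas1 (2.33 ± 0.491). Prune2 ranked 27708 and 34344 in KO and 64141 and 62848 in WT. On the lower side they were a region over 100 kb from genes (mm10 chromosome 7, 125191305 to 125191686; −2.35 ± 0.499), Esr1 (−2.25 ± 0.436), Art1 (−2.24 ± 0.573), Fggy (−2.16 ± 0.540) and Dock1 (−2.15 ± 0.531). Esr1, the oestrogen receptor alpha gene, had a region inside the gene with ranks 63667 and 63552 in KO and 28465 and 37724 in WT (limma adjusted p = 0.00227). In each of these regions the genotype with the weaker rank lay close to the end of the list, that is, among its weakest regions. The call at Gas1 ended without KO 2, and those at Esr1, Art1, Fggy and Dock1 without WT 1 (limma adjusted p 0.0519 to 0.116). Art1, Fggy and Dock1 also lost theirs without WT 2, and Art1 without KO 1 (limma adjusted p = 0.138).

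Start regions here again include those at either gene end where RefSeq windows give no start, so some may lie at the far end of a gene. Among start regions the largest differences on the higher side were at Dnajc18 (1.85 ± 0.460), Efhd2 (1.67 ± 0.449), Clec1a (1.64 ± 0.380), Emp1 (1.52 ± 0.442) and Adap2 (1.49 ± 0.341). On the lower side they were at Rps6kl1 (−2.03 ± 0.550), Frg1 (−1.94 ± 0.393), Dysf (−1.83 ± 0.466), Dhx32 (−1.68 ± 0.501) and Xdh (−1.44 ± 0.338). The Clec1a region is also within 1 kb of Clec12b and that of Dhx32 within 1 kb of Fank1. Dysf, the muscle membrane repair gene, ranked 64071 and 61369 in KO and 39081 and 42324 in WT, and Xdh, xanthine dehydrogenase, 61066 and 57571 against 33102 and 31588. The Adap2 and Frg1 values each rest on 1 peak whose deposited values disagree. Frg1 ranked 6924 and 63322 in KO and 4594 and 4310 in WT, and its KO 2 peak had a deposited fold enrichment of 23.7 with a −log10 q of 5.55. Adap2 ranked 10600 and 8508 in KO and 10649 and 62272 in WT, and its WT 2 peak had a fold of 20.4 with a −log10 q of 6.54. By fold enrichment the differences were −0.455 for Frg1 and −0.0357 for Adap2. Without KO 2 the call at Frg1 ended (limma adjusted p = 0.176), and without WT 2 that at Adap2 (0.847). Leaving out at least 1 library ended the call at each of the other 8 starts as well, with limma adjusted p up to 0.383 (Dhx32, without KO 1).

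Regions that ranked higher in KO MPPs had peaks in most LT-HSC libraries. Of the 1216 higher regions, 65.7% (LT-HSC KO 1), 86.3% (KO 2), 98.2% (KO 4), 94.2% (WT 2) and 74.8% (WT 3) had a peak there, against 28.4%, 47.3%, 71.8%, 59.4% and 32.5% of all 64330 regions. Of the 1206 lower regions the shares were 10.2%, 17.3%, 24.5%, 21.2% and 11.9%. All 5 LT-HSC libraries, KO and WT, thus held the higher regions more often and the lower regions less often than regions in general. Regions in general were not matched to these for strength or position. The median of the mean MPP score was 0.372 for higher, 0.245 for lower and −0.0366 for all regions. The LT-HSC lists held 22690 (KO 1) to 71586 (KO 4) peaks. LT-HSC markers had peaks near 5 and 7 of 7 genes in the KO MPP lists and 6 and 6 in WT. The part of such cells in the differences between KO and WT MPPs was not tested. The median difference over the 231 regions of stem cell identity genes was 0.0899.

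**Figure D5:**
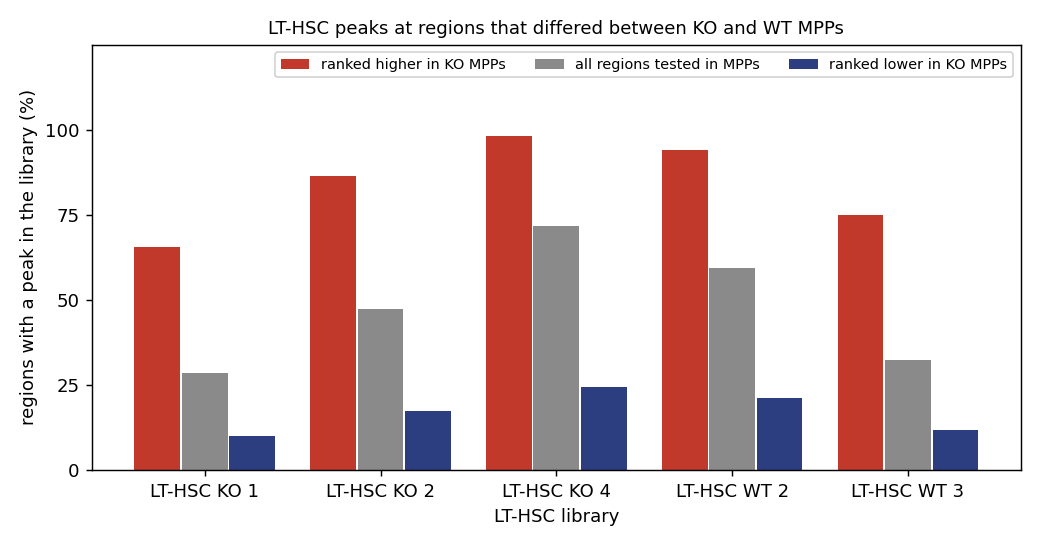
Bars give the percent of regions with a peak in each LT-HSC library, for regions ranked higher in KO MPPs (red), all tested regions (grey) and regions ranked lower (blue). In each library the order is the same, from 65.7% to 98.2% for higher regions down to 10.2% to 24.5% for lower regions.

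Whether the genotype difference itself differed between MPPs and LT-HSCs was tested over the 13908 regions held by all 9 lists. The limma interaction gave 0 regions at adjusted p under 0.05, with 1162 at unadjusted p under 0.05 and a smallest adjusted p of 0.576. By fold enrichment the count was also 0. It was 3862 without LT-HSC KO 4 and 0 without any of the other 8 libraries in turn. No difference is therefore called particular to MPPs. Of the higher regions 716 were among the 13908, with a median KO minus WT difference of 0.474 in MPPs, which is fixed by their choice, and 0.0621 in LT-HSCs, against −0.0466 over all 13908 in LT-HSCs. Of the 1206 lower regions only 87 were, with medians of −0.537 in MPPs and −0.589 in LT-HSCs. These 87 are the lower regions with a peak in all 9 lists and do not stand for the rest. The limma KO minus WT test in LT-HSCs called 0 of the 13908 regions at adjusted p under 0.05.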

How the data were processed

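The gene lists and tests, and the comparison itself, were chosen with earlier results of these data known. For each library the authors deposited 1 list of peaks, made with MACS2 2.1.1 on mm10, per the submitters' processing notes. Those notes list, with no role stated, HOMER 4.10.3, edgeR 3.20.9, DiffBind 2.6.6, SAMtools 0.1.18, Bowtie2, FastQC and cutadapt 1.7. Reads were paired, 50 nt long, per the labels' protocols. How Tn5 offsets and duplicates were treated is not stated in the sources used here. The deposited values are a fold enrichment (a ratio), the −log10 of p-value and q-value, a display score and a summit offset. The display score was not used. The labels do not say whether replicates came from separate animals, so a p-value reflects the spread between libraries alone, and that spread may be technical. It is drawn largely from a trend over all regions (a median of 40.3 total degrees of freedom, against 4.01 with no trend). A printed SE or adjusted p is therefore not the spread of that region's own replicates.

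Peaks of the 4 MPP lists were merged (overlap of at least 1 bp), a region taking its strongest peak, ranked by −log10 q and then by fold. Normal scores of the ranks were fitted with limma 3.58.1 (R 4.3.3, lmFit and eBayes with trend) over all 64330 regions held by 4 lists, two-sided, with Benjamini-Hochberg adjustment over all of them and a threshold of 0.05. The interaction used all 9 libraries. No count test was possible on peak lists, and counting intervals need depths, which are unknown.

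A region was assigned to the RefSeq protein-coding gene (20661 genes, GRCm38.p6, the chromosomes of mm10) that contains its midpoint, or else to the nearest gene end within 100 kb. Starts came from promoter windows (16456 genes). For other genes both ends counted. Exons, introns and UTRs were not annotated. Of 406 list entries 405 matched. Named genes are Rxra, Rxrb, Rxrg and Myc, per direction the 6 genes with most called regions, the 5 largest start regions and the 5 largest differences, up to 2 members per list and direction, and for presence the 3 genes per direction with most regions. Further list members with a call, among them Klf9, Mylip, Plin2, Gp1ba, Gp9, Pf4 and Itga2b, were named after their values were seen. Alternatives were rankings by fold or log2 rank, other region sets, variance models and overlaps, a replicate block, and leaving out each library. A robust variance estimate and a requirement that groups do not overlap were added after seeing the data. Some genes that the rule names are not reported here.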

Additional observations from a re-analysis of the deposited data

How the results depend on the processing

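The counts of regions ranked higher and lower in KO MPPs (1216 and 1206) were 682 and 726 with a difference of at least 0.5 required, 736 and 644 on the log2 rank, 27 and 62 ranked by fold enrichment, 0 and 1 with ranks within start regions and within the rest, and 0 and 0 with no variance trend. The cause was not tested. The median total degrees of freedom were 40.3 with the trend, 4.01 without it, 11.8 by fold, 7.62 within classes, 64330 with the replicate block and without KO 1, KO 2 or WT 2, and 1225 without WT 1, so in the last 5 a region's own spread counts for almost nothing. Leaving out each library in turn gave 598 to 1113 higher and 350 to 1373 lower regions, where the lone library of a genotype is assumed to vary like the other pair. Under the other alternatives, the replicate block included, both counts stayed within 1.5 times. The replicate numbers share only a name: the correlation of KO 1 minus KO 2 with WT 1 minus WT 2 was −0.0107 over regions. The replicate block gave 1508 and 1538 calls and ended none, which at these degrees of freedom says nothing of stability. Of the 1216 and 1206 calls, 508 to 750 and 317 to 803 were called again without 1 library, and 1078 and 1028 among regions held by 3 or 4 lists.

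Of 148 regions named by gene and direction, 146 were called under cyclic loess, 136 with the robust variance, 84 on the log2 rank, 7 by fold enrichment, 0 with no variance trend or with ranks within classes, and 85, 96, 72 and 68 without KO 1, KO 2, WT 1 and WT 2, and 1 changed direction by fold, Adap2 (−0.0357). Strong regions only in KO and only in WT numbered 346 and 347 among the 10000 strongest peaks and 1375 and 1523 among the 40000 strongest, and 1273 to 1431 and 1277 to 1450 without 1 library. Regions with peaks only in KO or only in WT numbered 3893 to 7833 and 4375 to 7409 without 1 library. The share of peaks near starts or ends, KO minus WT, was −0.84 percentage points among the 10000 strongest peaks and −0.5925 to 0.2425 without 1 library, and −0.175 as differences within same-numbered libraries (replicate block). The Jaccard excess was 0.0497 among the 20000 strongest peaks. The interaction count was 0 to 3862 without 1 library, the highest without LT-HSC KO 4. Library depth is unknown, so weak peaks missing from a list cannot be read as closed chromatin.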
